A study of Mus musculus with 9 samples.

Results

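Multiciliated cell genes are the genes that switch on, assemble and power the many beating cilia of ciliated epithelial cells. They were taken here as a list of 45 named genes, chosen with earlier results of these data known. Of the 45, 44 had a probe well above background on at least 2 of 9 arrays, out of 22647 genes measured in all. The remaining gene, Cdhr3, a cadherin-family membrane protein of ciliated airway cells, passed on 1 array and was not measured further. RNA of newborn (P0) mouse esophagus of the C57BL/6J strain was hybridised from 3 genotypes: WT (n = 4), p63-/- (n = 3) and p63-/-;Cdx2 (n = 2), the last being p63 knockout mice that also carry a transgene written Villin-Cdx2 in the series title. p63, encoded by Trp63, is a transcription factor of the basal cells of stratified epithelia. Cdx2 is a homeobox gene that directs intestinal fate. The labels give neither the deleted part of Trp63 nor the stretch of Villin, a brush border gene of the intestine, that drives Cdx2, and they do not say whether animals were pooled. Every array carried the sample in Cy5 beside 1 common reference RNA, made from 11 mouse cell lines, in Cy3. The labels call the samples of a genotype replicates, and no label gives litters or dissection, so p-values here measure the spread between these samples.

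A motile cilium is built on an axoneme, a cylinder of microtubule doublets around a central pair, moved by outer and inner dynein arms and paced by radial spokes. In multiciliated cells Foxj1 turns on the genes of this machine, factors of the Rfx family bind a promoter sequence called the X-box beside it, and Ccno and Myb act in the step that multiplies the basal bodies from which the cilia grow. The esophagus of adult mice is lined by a stratified squamous epithelium without cilia, whereas the trachea and the bronchi have many multiciliated cells. The esophagus of p63-deficient mice is known for a simple lining that holds ciliated cells. The question that the genotypes put to these genes is whether their levels differed in p63-/- and p63-/-;Cdx2 esophagus.

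Some promoters of the multiciliated cell genes held short X-box matches, and the stretches below are shown because those letters were found in a larger share of the members than of all genes. Promoters of 39 of the 45 genes were read from RefSeq (build GRCm38.p6), from 250 bases before the start to 50 after it. The opening letters of the X-box, GTTGCC on either strand, was in 19 of the 39 (48.7%) and in 14.1% of the promoters of 27025 genes. The 27 matches, over 20 promoters, count the same Tekt2 sites once for each of its overlapping promoters. Their median position was 26 bases before the start, and 14 genes had a match within the last 120 bases. The full X-box GTTGCCNNGGNAAC, which contains those letters on 1 strand, was in 1 member, Pifo (2.56%), and in 0.355% of all promoters. The forkhead motif GTAAACA was in Ak7, Myb and Stoml3 (7.69%) and in 4.05% of all promoters. These are matches of letters, not measured binding. The 120 bases before the start of 5 genes are printed 5′ to 3′ on the strand of the gene, with GTTGCC, or GGCAAC where the match is on the other strand, in capitals. Dynlrb2 lies at chr8:116504895-116505014 on the plus strand, and the others on the minus strand: Enkur at chr2:21205366-21205485, Fam183b at chr11:58801961-58802080, Tekt1 at chr11:72361883-72362002 and Pifo at chr3:106001498-106001617.
Dynlrb2: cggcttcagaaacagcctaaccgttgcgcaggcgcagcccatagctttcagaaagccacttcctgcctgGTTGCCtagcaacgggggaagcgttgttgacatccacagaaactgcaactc
Enkur: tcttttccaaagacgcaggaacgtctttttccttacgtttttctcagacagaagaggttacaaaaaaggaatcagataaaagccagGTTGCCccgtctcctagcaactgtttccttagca
Fam183b: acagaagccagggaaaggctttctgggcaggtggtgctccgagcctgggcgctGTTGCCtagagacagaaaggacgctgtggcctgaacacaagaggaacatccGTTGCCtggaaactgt
Tekt1: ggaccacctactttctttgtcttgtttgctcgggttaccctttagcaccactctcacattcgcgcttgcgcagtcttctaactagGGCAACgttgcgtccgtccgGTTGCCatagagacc
Pifo: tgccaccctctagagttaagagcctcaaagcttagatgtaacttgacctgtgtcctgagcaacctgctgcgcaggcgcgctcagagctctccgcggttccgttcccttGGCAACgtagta

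The labels were checked first on genes of the study's own design. The Trp63 probe read lay between 11.60 and 12.31 in WT and between 10.74 and 11.26 in the 5 knockout samples, in log2 sample signal, and it is not known whether it lies in the deleted part. Krt14, a basal keratin, lay between 10.73 and 11.13 in WT and between 7.19 and 7.62 in the knockouts. WT replicate 4 has a source label that names the knockout, while its title and genotype say WT, and its Krt14 signal of 11.13 stood with WT. The Cdx2 probe was well above background on 0 of 9 arrays, transgenic samples included, and whether the transgene carries its sequence is not stated. The 4 WT arrays were on 1 slide, and each knockout genotype was on 1 slide of its own with its own scan. Slide, scan and genotype therefore cannot be told apart.

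The multiciliated cell genes were present in every sample, WT included. Between 42 and 44 of the 44 genes stood well above background on each array. The genes were kept by this same measure on at least 2 arrays, so a high count was partly set by that. Of all 41174 probes 33742 were kept, and 30021 to 33243 stood well above background on each array. The exceptions among the members were Dnaic2, a dynein intermediate chain above background on 2 of 9 arrays, and Stoml3, a stomatin-family membrane protein, on 3. In WT the median log2 ratio of sample over reference was 1.84 over the members and 0.06 over all genes. The WT mean exceeded 1, more than a doubling over the reference, in 34 of 44 members (77.3%) and in 14.3% of all genes. It exceeded 1 on all 9 arrays in 27 members (61.4%) and in 7.55% of all genes. The reference is RNA of cultured cell lines, so a high ratio says that the tissue held more of a transcript than those lines did. Efhc2, an axonemal microtubule inner protein, was the main exception, with log2 ratios between -2.30 and -1.31.

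No multiciliated cell gene passed the test in any genotype comparison. With limma and Benjamini-Hochberg adjustment over all genes, 0 of 44 members were called in p63-/- against WT, where 0.327% of all genes were. 0 of 44 were called in p63-/-;Cdx2 against p63-/-, where 0% of all genes were, and 0 of 44 in p63-/-;Cdx2 against WT, where 1.4% were. At an unadjusted p under 0.05 the member counts were 1, 0 and 1, beside 7.79%, 11.4% and 18.1% of all genes. In the sample channel alone 0 of 44 were called in each comparison, beside 1.78%, 0.221% and 2.43% of all genes. A missed threshold does not show equal levels: the 95% confidence interval of the log2 difference lay within 1 of 0 in 33, 22 and 33 of the 44 genes. The median distance from the estimate to either bound was 0.57, 0.68 and 0.65. The intervals of the sample channel were wider, and 11, 9 and 9 lay within 1 of 0. The labels name epithelium as the cell type but give whole esophageal tissue as the source of RNA. In tissue RNA, fewer ciliated cells and less RNA per cell cannot be told apart.

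The estimates themselves leaned one way in each comparison with p63-/-. In p63-/- against WT 41 of 44 members (93.2%) had a log2 difference above 0, as did 56.3% of all genes, and the median was 0.25, against 0.02 over all genes. In p63-/-;Cdx2 against p63-/- 39 of 44 were below 0 and 5 (11.4%) above, beside 43.8% of all genes above 0, and the median was -0.22, against -0.03. Against WT, p63-/-;Cdx2 had 18 above 0 and 26 below, beside 49.2% of all genes above 0, and the median was -0.03, against 0.00. These comparisons share the p63-/- arrays or the WT arrays, so they are not separate evidence. The lean of p63-/- over WT turned under other settings. With the scanner software's processed signals, which change both the background correction and the dye normalisation, 17 of 44 were above 0 and the median was -0.03, and with log ratios scaled to equal spread 18 of 44 and -0.07. With single arrays left out the median of p63-/- against WT stayed above 0, at 0.11, 0.35, 0.09 and 0.39 without WT replicates 1 to 4 and 0.12 without p63-/- replicate 3. The median of p63-/-;Cdx2 against p63-/- was -0.12 and -0.38 without p63-/-;Cdx2 replicates 1 and 2, and -0.14 without p63-/- replicate 3. That of p63-/-;Cdx2 against WT took either sign, at -0.13, 0.02, -0.18 and 0.12 without WT replicates 1 to 4, and 0.13 and -0.17 without p63-/-;Cdx2 replicates 1 and 2.

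**Figure D1:**
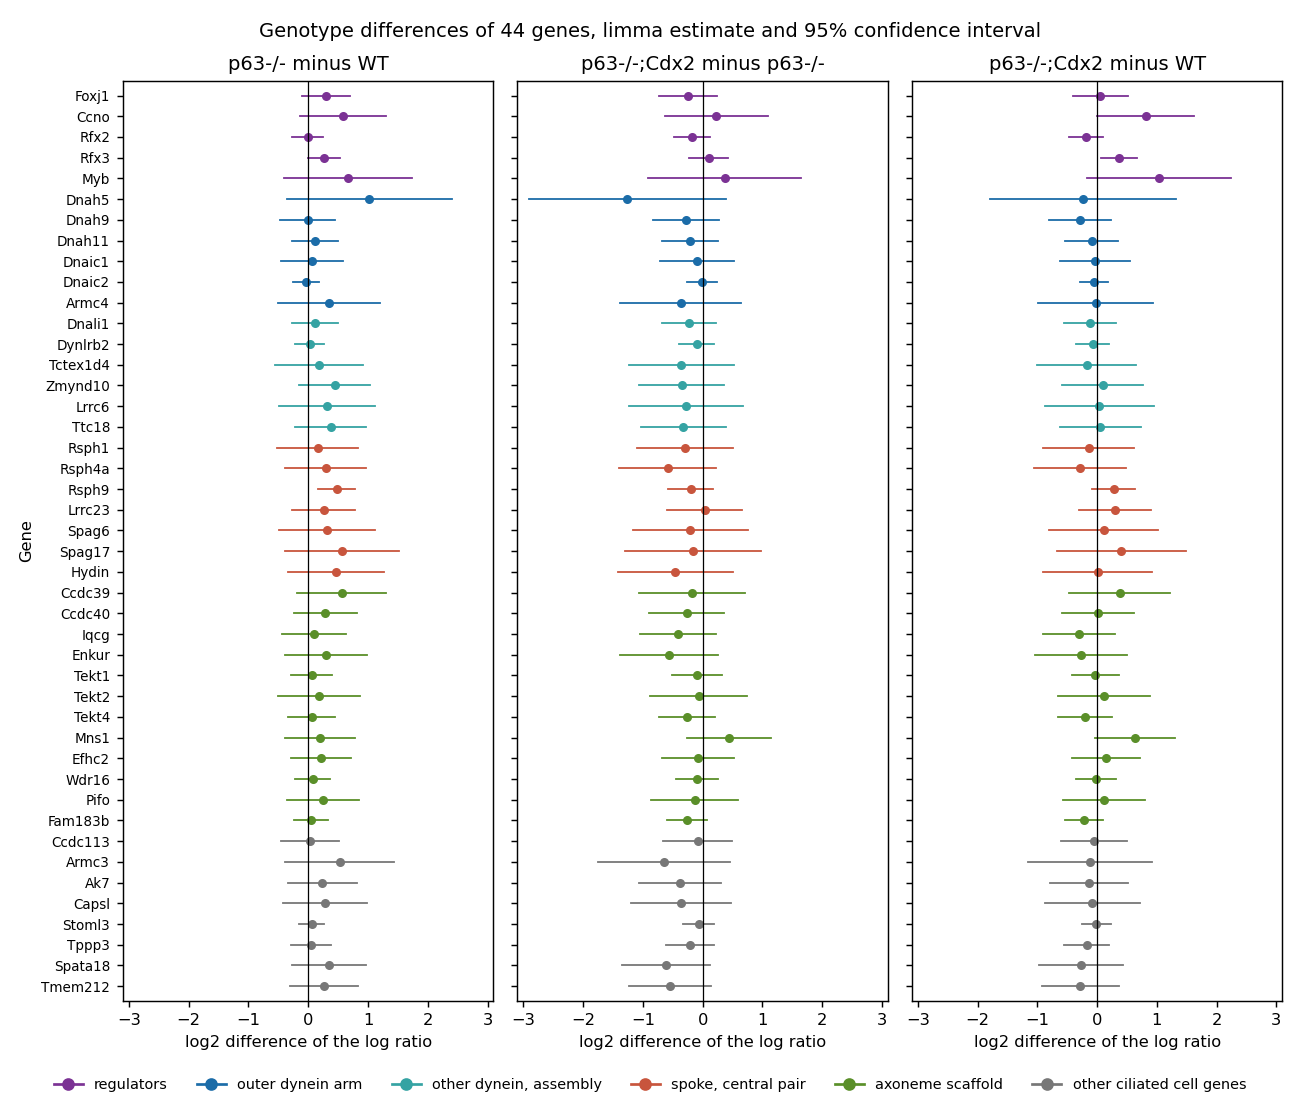
Log2 difference of the log ratio between genotypes (x axis) for each of 44 genes (y axis), with the limma estimate as a point and its 95% confidence interval as a line, coloured by role. Of the intervals, that of Rsph9 in the left panel and that of Rfx3 in the right panel lie wholly above 0, and neither gene passed the adjusted test.

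The regulators were read first. Foxj1, the forkhead factor that commands the program (probe at chr11:116192214-116192273, mm9), had log2 ratios of 2.18, 2.75, 2.29 and 2.94 in WT, 2.80, 2.85 and 2.85 in p63-/- and 2.60 and 2.59 in p63-/-;Cdx2. Both samples with the transgene and all p63-/- samples fell inside the range of the WT samples, which ran from 2.18 to 2.94. The difference of p63-/- from WT was 0.29 (SE 0.18, adjusted p = 0.74), and that of p63-/-;Cdx2 from p63-/- was -0.24 (SE 0.21, adjusted p = 0.68), with every p63-/-;Cdx2 value below every p63-/- value. Foxj1 spread far more in log2 sample signal, with 10.79, 12.10, 11.68 and 12.56 in WT, 12.18, 12.53 and 13.48 in p63-/- and 11.17 and 12.60 in p63-/-;Cdx2.
Ccno, the cyclin-family protein needed to multiply basal bodies (chr13:113780810-113780869), had log2 ratios of 0.20, 1.04, 0.31 and 1.22 in WT, 0.69, 1.52 and 1.61 in p63-/- and 1.33 and 1.68 in p63-/-;Cdx2. Both p63-/-;Cdx2 values were above all 4 WT values, and the difference was 0.81 (SE 0.36, adjusted p = 0.28). For p63-/- against WT it was 0.58 (SE 0.31, adjusted p = 0.72), with p63-/- replicate 1 inside the WT range.
Rfx3, an X-box binding factor (chr19:27879946-27880005), had log2 ratios of 0.25, 0.33, 0.18 and 0.60 in WT, 0.62, 0.70 and 0.50 in p63-/- and 0.82 and 0.59 in p63-/-;Cdx2. Its difference of p63-/-;Cdx2 from WT, 0.37 (SE 0.13, adjusted p = 0.20), had the lowest adjusted p of the members in that comparison, and WT replicate 4 overlapped the transgenic samples. Rfx3 has 4 measured probes, and in p63-/- against WT they ranged from -0.02 to 0.27. In p63-/-;Cdx2 against WT the Rfx3 probes other than the one read gave 0.07, 0.07 and 0.15. Rfx2, its relative, was level with the reference, with ratios between -0.33 and 0.15 and a p63-/- difference of -0.01 (SE 0.11, adjusted p = 0.98).
Myb, a transcription factor of early multiciliated cells and of proliferating progenitors (chr10:20844963-20845022), had log2 ratios of -0.89, -0.16, -0.25 and -0.18 in WT, -0.16, 0.36 and 0.67 in p63-/- and -0.42 and 1.73 in p63-/-;Cdx2. WT replicate 1 was low and p63-/-;Cdx2 replicate 2 high, and the 2 transgenic samples lay on either side of all WT samples but replicate 1. All p63-/- values were above all WT values, by less than 0.01 at the closest. The difference was 0.66 (SE 0.46, adjusted p = 0.78), and 4 probes gave 0.03 to 0.67.

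The outer dynein arm held the largest estimate of p63-/- against WT. Dnah5, a heavy chain of the outer arm (chr15:28401496-28401555), had log2 ratios of 2.98, 4.37, 2.72 and 4.97 in WT, 4.66, 4.37 and 5.33 in p63-/- and 2.79 and 4.25 in p63-/-;Cdx2. WT replicates 1 and 3 and p63-/-;Cdx2 replicate 1 were low, and WT replicate 4 lay among the p63-/- values, which were all above the other WT values, by less than 0.01 at the closest. The difference of p63-/- from WT was 1.03 (SE 0.60, adjusted p = 0.73), and that of p63-/-;Cdx2 from p63-/- was -1.26 (SE 0.72, adjusted p = 0.53). The other 2 measured Dnah5 probes gave 0.08 and 0.09 for p63-/- against WT. For p63-/-;Cdx2 against p63-/- they gave -0.31 and -0.20. In the sample channel WT replicate 3 was not low for Dnah5, at 10.90, but its reference signal was 8.18, against 6.33 to 6.72 on the other arrays.
Dnah9, the partner heavy chain, had log2 ratios of 2.00, 2.77, 2.38 and 2.86 in WT, 2.53, 2.37 and 2.59 in p63-/- and 2.08 and 2.36 in p63-/-;Cdx2. All 3 p63-/- values lay between the lowest and the highest WT value, with a difference of -0.01 (SE 0.20, adjusted p = 0.99). Armc4, a docking factor of the outer arm, had 0.94, 1.65, 0.61 and 1.98 in WT, 1.30, 1.55 and 2.08 in p63-/- and 0.83 and 1.72 in p63-/-;Cdx2, and its difference of p63-/- from WT was 0.35 (SE 0.37, adjusted p = 0.84). Dnaic2 lay within 0.22 of the reference on every array and was too dim for a fold. The outer arm genes left, Dnah11 and the intermediate chain Dnaic1, had p63-/- differences of 0.12 and 0.06. All 6 outer arm genes were below 0 in p63-/-;Cdx2 against p63-/- and against WT, and none passed the test.

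The other dynein genes and the assembly factors overlapped between WT and p63-/-, as most genes did. Of all genes 5.92% were higher and 4.57% lower in p63-/- without overlap. Dynlrb2, a dynein light chain, had log2 ratios of 3.07, 3.49, 3.21 and 3.31 in WT, 3.40, 3.28 and 3.21 in p63-/- and 3.23 and 3.17 in p63-/-;Cdx2, a range of 0.42 over the 9 arrays, and a p63-/- difference of 0.03 (SE 0.11, adjusted p = 0.96). Zmynd10, which helps to assemble dynein arms in the cytoplasm, had 1.40, 2.07, 1.40 and 2.39 in WT, 2.06, 2.23 and 2.48 in p63-/- and 1.70 and 2.11 in p63-/-;Cdx2. Its p63-/- samples were among the highest, but WT replicates 2 and 4 reached 2.07 and 2.39, and the difference was 0.44 (SE 0.26, adjusted p = 0.74). Ttc18, an axonemal protein of the dynein arms, had 1.55, 2.12, 1.35 and 2.47 in WT, 2.15, 2.14 and 2.43 in p63-/- and 1.73 and 2.11 in p63-/-;Cdx2 and a difference of 0.37 (SE 0.26, adjusted p = 0.78). Dnali1, an inner arm light chain, had p63-/-;Cdx2 values of 2.18 and 2.25, both below the p63-/- range of 2.40 to 2.50, with a difference of -0.23 (SE 0.20, adjusted p = 0.68). All 6 genes of this role had estimates above 0 in p63-/- against WT and below 0 in p63-/-;Cdx2 against p63-/-.

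Among the radial spoke and central pair genes, Rsph9, a spoke head protein (chr17:46266279-46266338), came nearest to a genotype difference. Its log2 ratios were 1.44, 1.69, 1.71 and 1.88 in WT, 2.13, 2.04 and 2.30 in p63-/- and 1.75 and 2.16 in p63-/-;Cdx2. All 3 p63-/- values were above all 4 WT values, while 1 p63-/-;Cdx2 value lay in the WT range and the other in the p63-/- range. The difference of p63-/- from WT was 0.48 (SE 0.14, adjusted p = 0.37), the lowest adjusted p of the 44 members in that comparison. In log2 sample signal Rsph9 also did not overlap, with 10.98, 11.18, 11.53 and 11.33 in WT, 11.86, 11.57 and 12.23 in p63-/- and 11.43 and 12.43 in p63-/-;Cdx2. Groups did not overlap for 2 members, Rsph9 and Myb, both higher in p63-/- (4.55% of members), beside 5.92% of all genes, and 0 members were lower, beside 4.57%.
Spag17, a central pair protein, had log2 ratios of 2.10, 2.95, 1.36 and 3.21 in WT, 2.66, 2.98 and 3.27 in p63-/- and 2.59 and 3.02 in p63-/-;Cdx2, and its difference was 0.57 (SE 0.42, adjusted p = 0.79). WT replicates 1 and 3 were its lowest values, and WT replicate 4 was above p63-/- replicates 1 and 2. Lrrc23, a spoke protein, had 2.07, 2.89, 2.52 and 3.19 in WT, 2.91, 2.84 and 3.03 in p63-/- and 2.95 and 2.98 in p63-/-;Cdx2, with WT replicate 1 lowest, and the difference was 0.26 (SE 0.23, adjusted p = 0.82). Rsph1, another spoke head protein, had 1.33, 2.07, 1.07 and 2.24 in WT, 1.60, 1.82 and 2.08 in p63-/- and 1.30 and 1.77 in p63-/-;Cdx2 and a difference of 0.16 (SE 0.29, adjusted p = 0.91). Rsph4a, named here after its values were seen, was lower without overlap in p63-/-;Cdx2 than in p63-/- in both quantities, with a difference of -0.59 (SE 0.35, adjusted p = 0.55) in the ratio. The central pair gene Hydin was read from the probe that bears its name, at chr8:113133873-113133932. A second probe, filed as Gm9558 and listed by RefSeq as a synonym of Hydin, was not counted as a member. It differed by -0.04 between p63-/- and WT. Spag6 was read from a probe filed under that name, which RefSeq lists as Spag6l. A probe filed as BC061194, which RefSeq lists as Spag6, was not counted. The Spag6 probe read differed by 0.32 between p63-/- and WT, and the BC061194 probe by -0.22.

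The axoneme scaffold genes, 12 in all, had estimates between 0.05 and 0.56 in p63-/- against WT. Ccdc39, part of the ruler that sets the spacing of the dynein arms, had the largest, with log2 ratios of 1.02, 1.46, 0.61 and 2.05 in WT, 1.54, 1.78 and 2.21 in p63-/- and 1.46 and 1.87 in p63-/-;Cdx2 and a difference of 0.56 (SE 0.32, adjusted p = 0.73). WT replicate 4, at 2.05, exceeded p63-/- replicates 1 and 2. Fam183b, a microtubule-associated axonemal protein, had the smallest, 0.05 (SE 0.12, adjusted p = 0.94), with log2 ratios of 2.80, 3.29, 3.17 and 3.29 in WT, 3.24, 3.14 and 3.17 in p63-/- and 2.86 and 2.97 in p63-/-;Cdx2. Both of its transgenic values were below all p63-/- values, with a difference of -0.27 (SE 0.15, adjusted p = 0.51). Tekt1, a filament protein inside the doublets, had 2.32, 2.87, 2.72 and 2.90 in WT, 2.89, 2.68 and 2.72 in p63-/- and 2.82 and 2.52 in p63-/-;Cdx2 and a p63-/- difference of 0.06 (SE 0.15, adjusted p = 0.94). Enkur, a doublet protein tied to calcium signalling, had 1.78, 2.69, 1.74 and 2.82 in WT, 2.31, 2.51 and 2.84 in p63-/- and 1.80 and 2.18 in p63-/-;Cdx2. The transgenic samples, at 1.80 and 2.18, were below the p63-/- samples, at 2.31 to 2.84, and the difference was -0.57 (SE 0.36, adjusted p = 0.57). Mns1, chosen after its values were seen, ran against most members. Its p63-/-;Cdx2 ratios of 0.69 and 1.06 were above all WT ratios, which ran from -0.22 to 0.54, and the difference was 0.64 (SE 0.29, adjusted p = 0.30). Mns1 and Ccno were the members that lay higher without overlap in p63-/-;Cdx2 than in WT (4.55%, against 13.9% of all genes), and 0 were lower, against 13.8%.

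The other ciliated cell genes held some of the lowest transgenic estimates. Spata18, a mitochondrial quality control gene, had log2 ratios of 0.67, 1.24, 0.72 and 1.70 in WT, 1.24, 1.36 and 1.69 in p63-/- and 0.52 and 1.10 in p63-/-;Cdx2. Both transgenic values were below all p63-/- values, while the WT values ran from 0.67 to 1.70, and the difference of p63-/-;Cdx2 from p63-/- was -0.62 (SE 0.32, adjusted p = 0.49), the lowest adjusted p of the members there. Armc3, an armadillo-repeat protein, had 1.73, 2.93, 2.41 and 3.36 in WT, 2.96, 2.92 and 3.51 in p63-/- and 1.96 and 3.01 in p63-/-;Cdx2 and a difference of -0.64 (SE 0.48, adjusted p = 0.63), with p63-/-;Cdx2 replicate 2 inside the p63-/- range. Tppp3, a tubulin-polymerising protein used as a marker of ciliated airway cells, had 2.88, 3.36, 3.01 and 3.38 in WT, 3.33, 3.00 and 3.28 in p63-/- and 2.98 and 3.00 in p63-/-;Cdx2, and Ccdc113, a protein of the basal body region, had 3.18, 3.63, 2.86 and 3.77 in WT, 3.45, 3.35 and 3.39 in p63-/- and 3.14 and 3.47 in p63-/-;Cdx2. Their p63-/- differences from WT were 0.04 (SE 0.15, adjusted p = 0.95) and 0.03 (SE 0.21, adjusted p = 0.98). In all, 13 members (29.5%) were lower in p63-/-;Cdx2 than in p63-/- without overlap, beside 18% of all genes, and 0 were higher, beside 14%. By sample signal 3 were lower without overlap, Dnah5, Rsph4a and Tmem212, a small membrane protein, beside 16.5% of all genes, and Rfx3 was higher, beside 19.2%. The count rests on 2 transgenic samples, and without p63-/-;Cdx2 replicate 1 the members above 0 went from 5 to 15, and without p63-/- replicate 3 to 8.

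**Figure D2:**
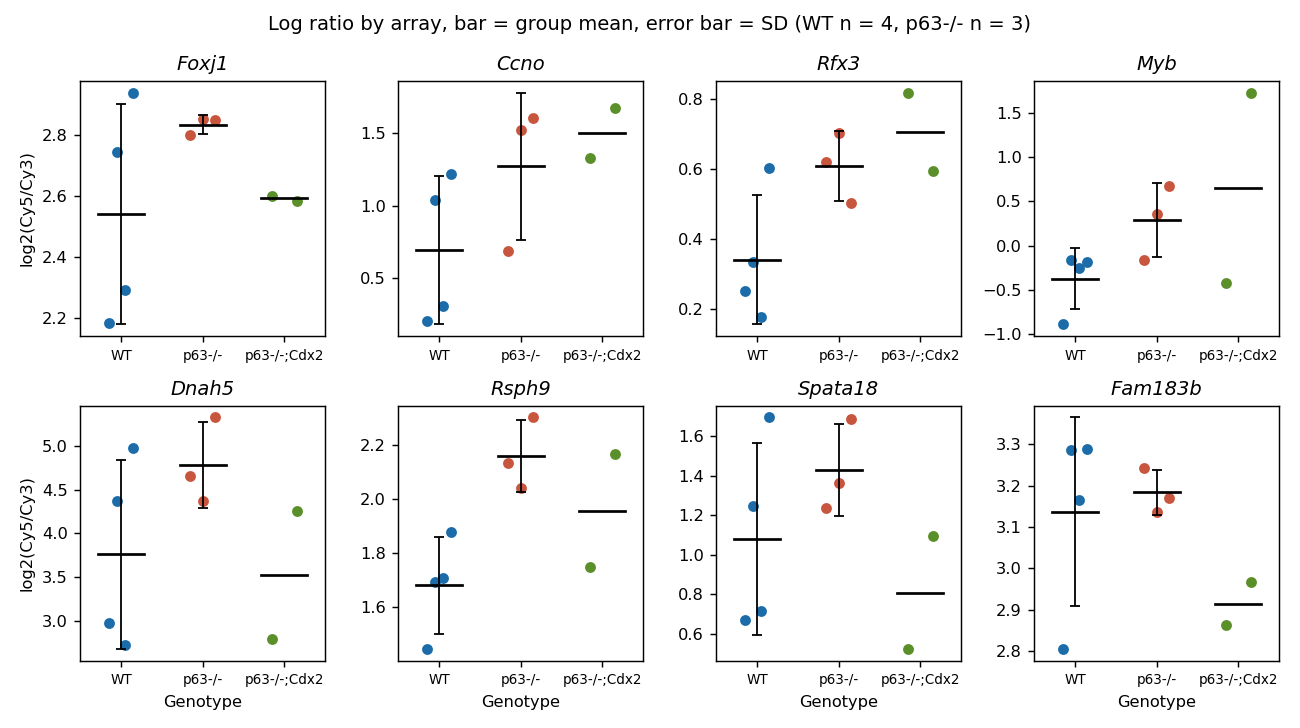
Log2 ratio of sample over reference (y axis) of 8 members on each array by genotype (x axis). The bar is the group mean and the error bar the SD, given where a group has more than 2 samples. Of these genes, Rsph9 and Myb have all p63-/- points above all WT points.

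The clearest pattern in the multiciliated cell genes was one of samples within a genotype. In the sample channel WT replicate 1 was the lowest WT sample for 42 of 44 genes, Dnaic2 and Stoml3 being the exceptions, and WT replicate 4 was the highest for 40. p63-/- replicate 3 was the highest of its genotype for 40 genes and the highest of all 9 samples for 35, and p63-/- replicate 1 was the lowest of its genotype for 32. p63-/-;Cdx2 replicate 1 was the lower of its pair for 41, all but Rfx3, Dnaic1 and Dnaic2. The orders for WT replicate 1, p63-/- replicate 3 and p63-/-;Cdx2 replicate 1 all held in 39 of 44 members (88.6%) and in 5.64% of 22608 genes with a value on every array. These orders were picked from the members' own values, so their higher share is a description and no test.
The sizes were large beside the genotype differences. WT replicate 4 exceeded WT replicate 1 by a median of 1.44 in log2 sample signal over the members, from 0.07 for Dnaic2 to 2.01 for Dnah5, and by 0.01 over all genes. The difference was above 1 for 32 members and for 3% of all genes. Sample signals were read after the arrays were brought to the same overall brightness, so small medians over all genes follow from that. p63-/- replicate 3 exceeded replicate 1 by a median of 1.05, against 0.00 over all genes, and Capsl, a calcium-binding protein, differed most, by 1.39. p63-/-;Cdx2 replicate 2 exceeded replicate 1 by 1.00, against -0.03 over all genes, with Myb at 1.96 and Dnaic1 at -0.83 as the ends of the range.
The largest range within a genotype exceeded the range of the genotype means in 43 of 44 members, in the log ratio (85.0% of all genes) and in the sample channel (77.6%). The median SD within genotypes was 0.63 for the members in log2 sample signal and 0.17 for all genes. In the log ratio it was 0.38 and 0.15.

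**Figure D3:**
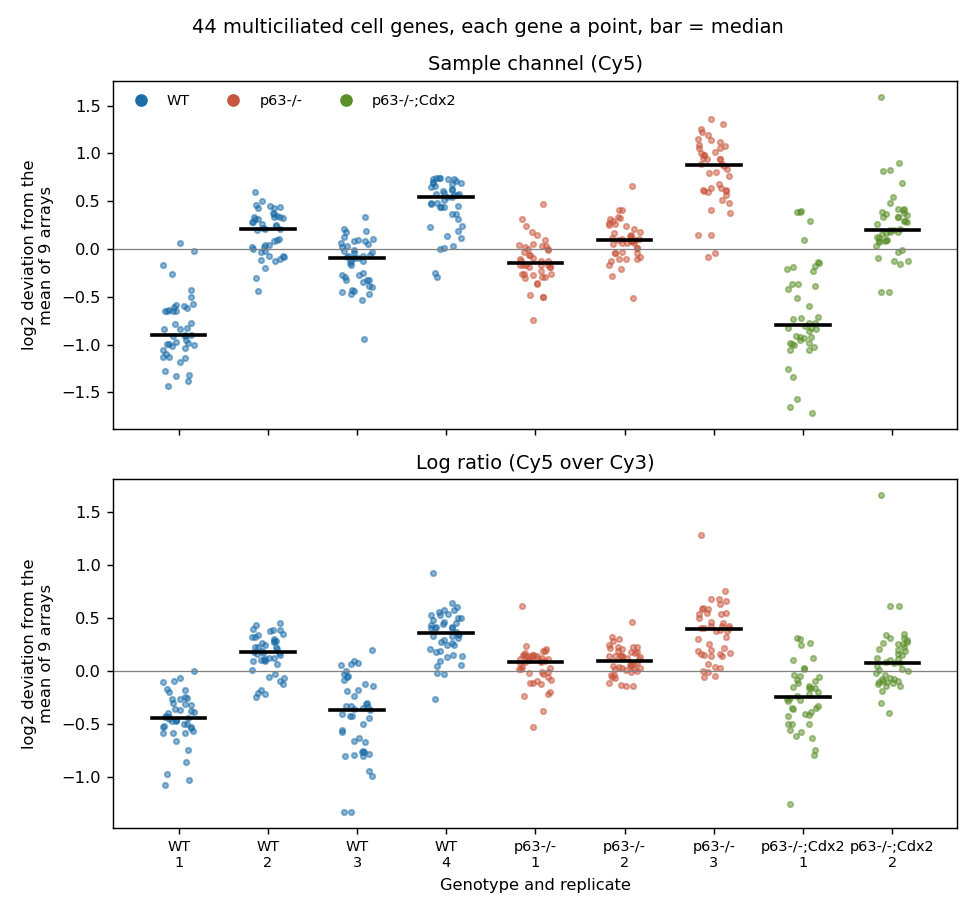
Deviation of each of 44 genes (points) from its own mean over 9 arrays (y axis, log2), by genotype and replicate (x axis), in the sample channel above and the log ratio below, with the median as a bar. The sample channel medians of WT replicate 1 and p63-/-;Cdx2 replicate 1 are -0.90 and -0.79, and that of p63-/- replicate 3 is 0.88.

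The log ratio showed less of this pattern, the median difference of WT replicate 4 from WT replicate 1 being 0.78 in the ratio. The reference signals of those same arrays were apart too, by 0.56, with WT replicate 4 again the higher. The reference RNA was the same on all arrays. Yet the members' median log2 reference signal ran from 8.02 on p63-/-;Cdx2 replicate 1 to 8.93 on p63-/- replicate 3. Over all genes it ran from 9.27 to 9.32, but the normalisation brought the arrays to the same overall brightness, so that narrow range follows from it. The reference signal of Foxj1 was 8.61, 9.36, 9.39 and 9.62 in WT, 9.38, 9.67 and 10.63 in p63-/- and 8.57 and 10.02 in p63-/-;Cdx2. It was lowest on the arrays with the lowest Foxj1 sample signal and highest on the one with the highest. Tekt1 and Wdr16, both axonemal, moved likewise, whereas the Myb reference stayed between 10.65 and 10.84 over a sample range from 9.80 to 12.38. The reference signal of Krt14, no ciliary gene, also followed its sample signal between WT and the knockouts. It was 9.62 to 10.01 in WT and 8.61 to 8.73 in the knockouts. The Trp63 reference signal was 8.07, 8.07, 8.92 and 8.03 in WT and 7.89 to 8.08 in the knockouts. Apart from WT replicate 3, it did not follow the lower Trp63 sample signal of the knockouts. WT replicate 3 had the highest reference signal among WT for 27 members. What moved the reference channel was not tested.

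**Figure D4:**
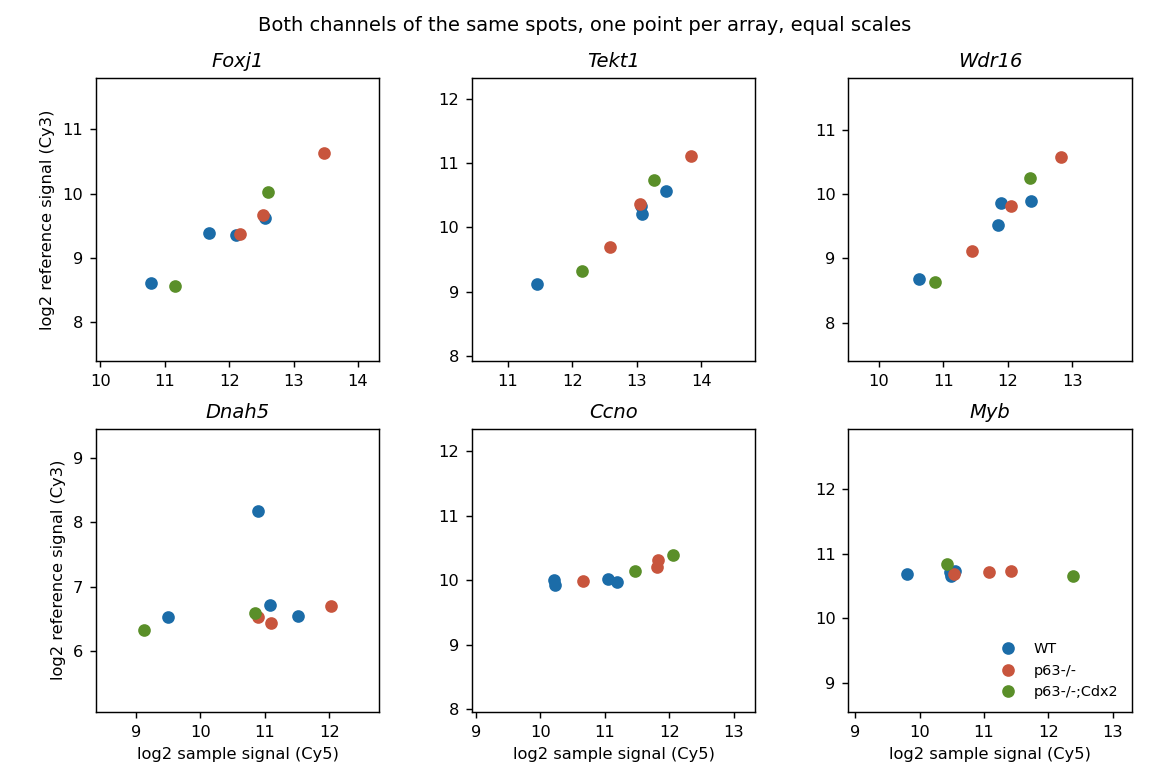
Log2 reference signal (y axis) against log2 sample signal (x axis) of 6 members, 1 point per array, both axes to the same scale and coloured by genotype. For Foxj1, Tekt1 and Wdr16 the reference signal follows the sample signal, and for Myb it stays between 10.65 and 10.84.

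Further genes of the pathway came from lists outside the 45. Of 62 listed further genes of the motile axoneme 51 were measured. Of these 1, Dnah8, passed the test, in p63-/-;Cdx2 against WT, where 1.4% of all genes did. Their median log2 differences were 0.25 for p63-/- against WT, -0.29 for p63-/-;Cdx2 against p63-/- and -0.04 for p63-/-;Cdx2 against WT.
Dnah8, an outer arm heavy chain best known from sperm, had log2 ratios of -0.51, -0.35, -0.43 and -0.39 in WT, 0.62, 0.30 and -0.05 in p63-/- and 0.44 and 0.61 in p63-/-;Cdx2. All 5 knockout values were above all 4 WT values. Dnah8 rose in p63-/-;Cdx2 against WT by 0.94 (SE 0.16, adjusted p = 0.044), and the difference of p63-/- from WT was 0.71 (SE 0.14, adjusted p = 0.15). Both passed in the sample channel, at 1.17 (adjusted p = 0.026) and 0.97 (adjusted p = 0.033). Of all genes 2.43% and 1.78% were called in that channel. The call in the ratio was lost with any 1 WT array left out, the adjusted p being 0.0841, 0.114, 0.0555 and 0.109 without WT replicates 1 to 4. It was also lost without p63-/- replicate 2 (0.0695) and without either p63-/-;Cdx2 replicate (0.115 each), with log ratios scaled between arrays (0.0713) and with the replicate number as a block (0.279).
Of 21 further regulators of multiciliation 15 were measured and 0 were called in the ratio, with medians of 0.13, 0.05 and 0.21. Deup1, a scaffold of the structures that multiply basal bodies, had the lowest p of them in p63-/- against WT, at 0.57 (SE 0.23, adjusted p = 0.60). Cep152, a centriole duplication protein, differed by 0.44 between p63-/-;Cdx2 and WT (SE 0.09, adjusted p = 0.058) and passed in the sample channel, at 0.53 (SE 0.10, adjusted p = 0.043). It was the 1 gene of the 15 called there, beside 2.43% of all genes. Trp73, a p63 relative that acts upstream of Foxj1, had ratios between 1.03 and 2.80 and a p63-/- difference of 0.13 (SE 0.42, adjusted p = 0.95). Of 26 genes of intraflagellar transport, which carries cargo along all cilia, 25 were measured and 0 called, with medians of 0.06, -0.10 and 0.02.

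Markers of tissues next to the esophagus were found in these samples, some of them bright and others dim, and moved between arrays, also within a genotype. All 14 airway secretory markers, all 8 lung alveolar markers, all 13 cartilage markers and all 6 thyroid markers were measured. Sftpc, the surfactant protein of alveolar type II cells, had log2 sample signals from 15.7 on WT replicate 3 to 18.7. Tg, thyroglobulin, ran from 7.87 on WT replicate 1 to 17.6 on WT replicate 3. The summed sample signal of the 44 members was 68935, 156917, 124878 and 191260 in WT, 121504, 139693 and 257875 in p63-/- and 74585 and 163896 in p63-/-;Cdx2.
The airway secretory list summed to between 663485 and 1088800 in WT, between 763432 and 1275350 in p63-/- and to 178975 and 912748 in p63-/-;Cdx2. Its lowest array, p63-/-;Cdx2 replicate 1, was also a low one for the members, and Scgb3a1, a secretoglobin of airway secretory cells, was 10.8 there against 16.2 to 18.3 elsewhere. The cartilage list was lowest on WT replicate 1 and p63-/-;Cdx2 replicate 1, at 17087 and 17888, against 32601 to 193963 on the other arrays. Those 2 arrays were also lowest for the members, the airway secretory list (663485 and 178975) and the fibroblast list (953186 and 805219). The same held for intraflagellar transport (155982 and 155623) and for the further axoneme genes (212872 and 205673). Other lists differed. The smooth muscle list was highest on WT replicate 1 (595849) and lowest on p63-/-;Cdx2 replicate 1 (224429). The skeletal muscle list was lowest on WT replicate 1 (275777) but stood at 782424 on p63-/-;Cdx2 replicate 1. The lung alveolar list was 65415 on WT replicate 3 and between 356668 and 520123 on the others, and the thyroid list, of which 2 to 6 genes stood well above background, ran from 1253 to 222421. The part of these tissues in the members' values was not tested. In the genotype comparisons 0 of the 14 airway, 8 alveolar, 13 cartilage and 6 thyroid genes were called in the ratio. In the sample channel 1 of the 14 airway genes was called, lower in p63-/-;Cdx2 than in WT, beside 2.43% of all genes called there. Lists of smooth muscle, skeletal muscle, neuron and glia, immune, fibroblast and adipocyte markers had 0 genes called in either quantity. The squamous lists did change: 2 of 7 basal and 7 of 10 suprabasal genes fell in p63-/- against WT, and 3 and 9 fell in p63-/-;Cdx2 against WT. In the ratio 0.327% and 1.4% of all genes were called in those comparisons.

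**Figure D5:**
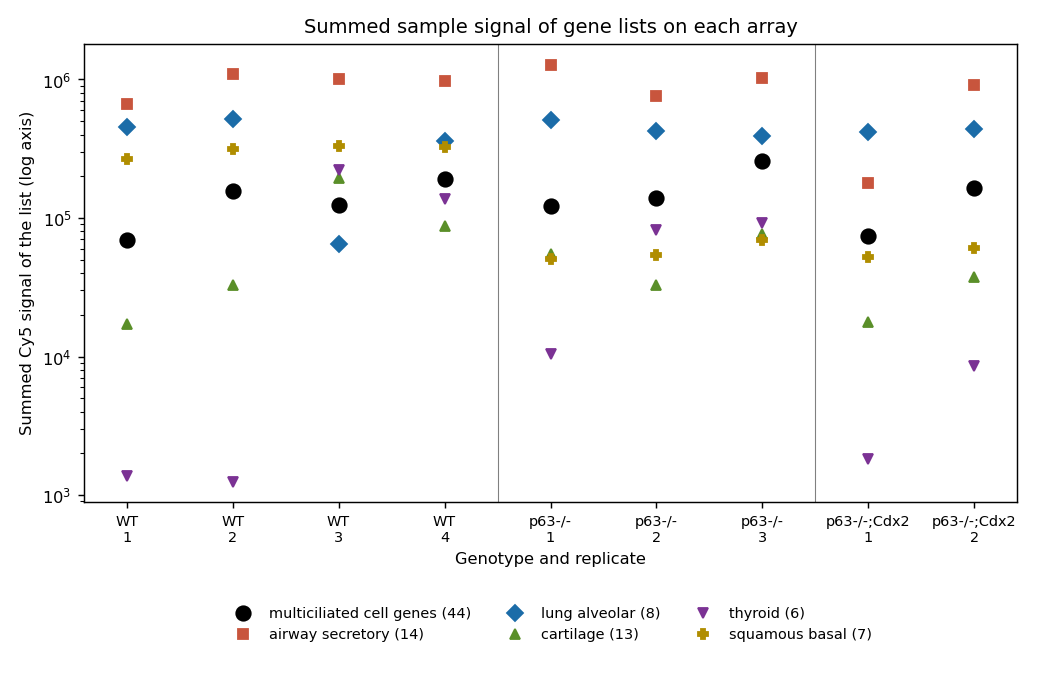
Summed Cy5 signal on a log axis (y axis) of the 44 multiciliated cell genes and of 5 marker lists on each array (x axis, genotype and replicate). The members are lowest on WT replicate 1 and p63-/-;Cdx2 replicate 1, where the airway secretory and cartilage lists are lowest too. So are the fibroblast, intraflagellar transport and further axoneme lists, which are not drawn. The lung alveolar list is lowest on WT replicate 3, and the smooth muscle list, not drawn, is highest on WT replicate 1.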

How the data were processed

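The submitters hybridised 9 Agilent 2-colour arrays, with the sample in Cy5 and the reference in Cy3 and no dye swap, per the labels. The deposited scanner files hold linear intensity values per spot, from Feature Extraction 10.7.3.1 per the file headers (9.1 per the submitters' processing notes), and a processed log10 ratio per spot. The deposited value table holds log2 ratios of Cy5 over Cy3, which correlated at 1 with those processed ratios on every array, and how they were centred is not given in the sources used here. With limma 3.58.1, mean intensities were background-corrected (normexp, offset 50) and loess-normalised within arrays, and the brightest kept probe was read for each gene. A probe was kept if well above background on 2 arrays. One model over the 9 arrays was fitted to log2 ratios of 22647 genes, with Benjamini-Hochberg adjustment at 0.05. The sample and reference channels were read after loess and Aquantile, which gives all arrays the same distribution of mean log signal over both channels. Alternatives in background correction, scaling, filter, probe choice, model and samples were run, and scripts were tested on simulated data. Probes were named through RefSeq by accession (26918) or symbol (5899), and 8357 kept the name in the file. Array positions are mm9.

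The members, lists and tests were chosen with earlier results of these data known. Values per array are given for the 5 regulators, for the 2 members of each other role with the largest and the 2 with the smallest difference of p63-/- from WT, and for called genes. Members named outside this rule were Mns1, Rsph4a, Tmem212, Efhc2, Hydin, Spag6, Wdr16, Capsl, Stoml3, Dnah11 and Dnaic1. These members, the Trp73 values and the single tissue markers were chosen after their values were seen.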

Additional observations from a re-analysis of the deposited data

Results flagged for a closer look

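Myb in WT was the one named member with a sample far from the others of its genotype. Its log2 ratio on WT replicate 1 was -0.89, the nearest WT value was -0.25, and this gap was 0.878 of the range of the 4 WT samples, above Dixon's 95% critical value for 4 samples. The 25 named members were looked at in this way, and chance flags about 1 in 20 such groups.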

How the results depend on the processing

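No member was called under any alternative run, in any comparison. The median over the members moved by less than the SD of the members' median between samples, 0.37, under each alternative. That SD is larger than the medians themselves, so it does not show that their sign is stable. The median of p63-/- against WT went from 0.25 to -0.03 with processed signals and to -0.07 with scaling. The counts of members above 0, added as a result after seeing the data, moved more. In the order p63-/- against WT, p63-/-;Cdx2 against p63-/- and p63-/-;Cdx2 against WT, they were 41, 5 and 18. They became 17, 13 and 10 with the software's processed signals and with the deposited value table, and 18, 9 and 7 with log ratios scaled between arrays. Leaving out 1 replicate gave 32 to 44, 4 to 15 and 9 to 30. With p63-/-;Cdx2 against WT the count was 11 without WT replicate 1, 9 without WT replicate 3, 30 without WT replicate 4, and 29 and 11 without p63-/-;Cdx2 replicates 1 and 2. The cause was not tested. With the replicate number as a block 0 members were called, the medians were 0.39, -0.25 and 0.11, and all-gene calls went from 74, 0 and 318 to 9, 0 and 8. Deviations of same-numbered samples correlated between -0.13 and 0.19. The labels do not say whether same-numbered samples share more than the number, and this was not tested. All-gene calls were 133, 4 and 398 with processed signals, 69, 0 and 95 with scaling, 77, 0 and 163 with median centring, 115, 0 and 50 with the 2 groups alone, and 91, 1 and 544 with a trended robust prior. Few arrays limit the precision, and Dnaic2 and Stoml3 are near background.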
